A study of Mus musculus with 3 samples.

Results

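The 34 genes described here were counted at 10 CPM or more in the B6 blastocyst library and at 0.3 CPM or less in each of the 2 NOD blastocyst libraries. CPM is the count of a gene divided by the sum of all gene counts of its library, times 1000000. The genes were chosen by these measured levels among the autosomal genes, with symbols that start with Rpl, Rps, H2-, Mir or Snor left out. They are 34 of 24063 genes in the table, and 34 of the 8143 such autosomal genes that reached 10 CPM in B6, which is 0.418%. Because the rule used the NOD and B6 levels, those levels are given as a description without a test. The name "near 0 in NOD" fits the rule better than "absent", since 25 of the 34 genes had at least 1 count in a NOD library.

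Low-input RNA-Seq of blastocysts had been performed to ask whether strains that differ in their risk of autoimmune diabetes already differ in transcription before implantation. The libraries came from untreated blastocysts, 1 of strain C57BL/6 (B6), which does not develop the disease, and 2 of strain NOD (non-obese diabetic), which develops it spontaneously. The labels call the input whole blastocysts, the methods describe single inner cell masses (ICMs) isolated by immunosurgery, and the age and sex of the embryos are not given in the sources used here. Counts on genes summed to 12505685 in B6, 33891715 in NOD 1 and 36171013 in NOD 2, so that 1 count was worth 0.0800, 0.0295 and 0.0276 CPM, respectively. Values of 3 libraries are given in this order, and pairs of NOD values in the order NOD 1, NOD 2. With 1 B6 library, a gene that differs by strain and a gene that was high in this embryo cannot be told apart. In bulk libraries, fewer cells of a type and less RNA per cell cannot be told apart either.

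A blastocyst consists of the trophectoderm, an outer epithelium that forms the placenta, and the inner cell mass, which divides into epiblast and primitive endoderm. Its cells express housekeeping genes from CpG-rich promoters together with a small set of lineage regulators. Genes of specialised tissues, such as endothelial receptors, ion channels and photoreceptor proteins, are often driven from starts with few CpG dinucleotides and are silent in most cell types.

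The labelled tissue was checked against marker lists. Of 10 trophectoderm markers, 8 reached 10 CPM in B6. The 10 summed to 3363 CPM in B6 against 1745 and 1559 in the NOD libraries, with a median log2 fold change of -0.82 over the 9 tested. None of the 10 was called in NOD against B6 by edgeR with its main scaling (TMM), with 5 lower and 1 higher at an unadjusted p under 0.05. EdgeR called 1 lower with DESeq2 size factors and 3 lower when scaled by total counts, and DESeq2 called 3 lower and 1 higher. The 9 ICM and epiblast markers summed to 446 CPM in B6 against 620 and 740 in the NOD libraries, with a median log2 fold change of 1.2. By edgeR, 1 was lower in NOD (Sox2, 54.3 CPM in B6 against 5.61 and 9.04). Gdf3 (41.7, 180.5 and 122 CPM) and Tdgf1 (1.60, 29.6 and 45.8 CPM) were higher. DESeq2 called 2 lower and 4 higher. Of 6 primitive endoderm markers, edgeR called 1 lower (Gata6) and 1 higher (Pdgfra), but 1 lower and 0 higher when scaled by total counts. Over all genes tested by edgeR, 7.39% were called lower and 10.3% higher. Leukocyte markers summed to 0.320 CPM in B6, compared with 0.354 and 0.968 in NOD, cumulus and granulosa cell markers to 0.240, 0.472 and 0.111, and red blood cell markers to 1.04, 1.18 and 1.60. None of the 34 genes is on these lists, and the part of cell composition in their levels was not tested.

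The 34 genes held 8675, 75 and 64 counts. On the CPM scale these sums were 694, 2.21 and 1.77. Single genes had 126 to 722 counts in B6, with a median of 185.5, and 0 to 10 counts in each NOD library, with a median of 0 in NOD 1 and 1 in NOD 2. The gap between the highest NOD count, 10, and the lowest B6 count, 126, follows from the rule and is not a finding. Its upper limit of 0.3 CPM equals 10.2 reads at the depth of NOD 1 and 10.9 at that of NOD 2. Its lower limit of 10 CPM equals 125.1 reads at the B6 depth. At the B6 level, the depth of NOD 1 would have given 341 to 1957 counts per gene. Of the 34 genes, 9 had no count in either NOD library, 18 had none in NOD 1, 16 had none in NOD 2, and 9 were detected in both. In all, 21 had 3 or fewer counts in each.

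**Figure D1:**
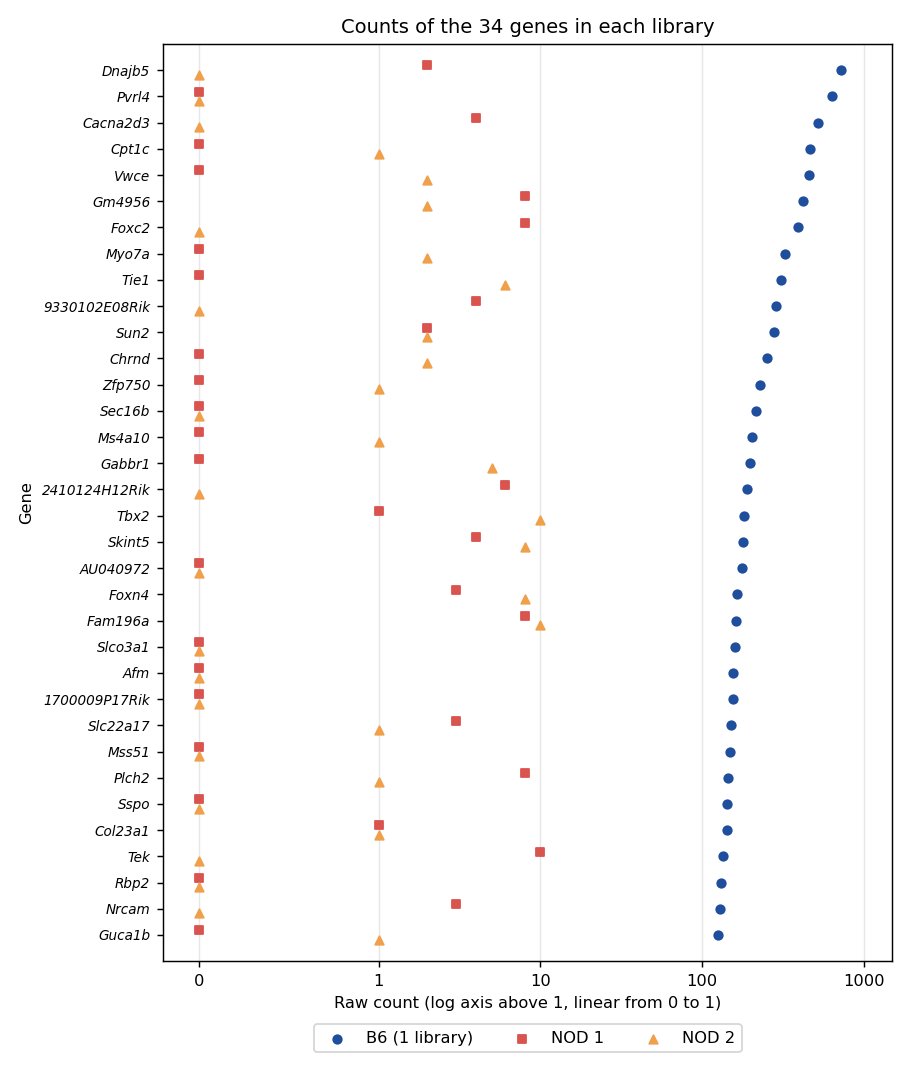
Raw counts of the 34 genes in the B6 library (circles), NOD 1 (squares) and NOD 2 (triangles), on an axis that is logarithmic above 1, with genes ordered by their B6 count. The B6 counts lie between 126 and 722 and the NOD counts between 0 and 10, and 9 genes have both NOD symbols at 0.

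The genes were of modest level in B6. Their median was 14.8 CPM, against 54.4 CPM for the 8143 genes from which they were taken, and 26 of them lay under 25 CPM. Of the 818 genes between 10 and 15 CPM in B6, 17 belonged to the group, which is 2.08%. The share was 0.771% (9 of 1168 genes) between 15 and 25 CPM and 0.334% (8 of 2393) between 25 and 60 CPM, and 0 of the 3764 genes at higher levels met the rule. Corrected for length, the B6 levels ran from 0.739 FPKM for Sspo, which codes for the giant glycoprotein SCO-spondin, to 29.4 FPKM for Gm4956. The median was 6.01 FPKM, against 19.4 FPKM among the 8143 genes.

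**Figure D2:**
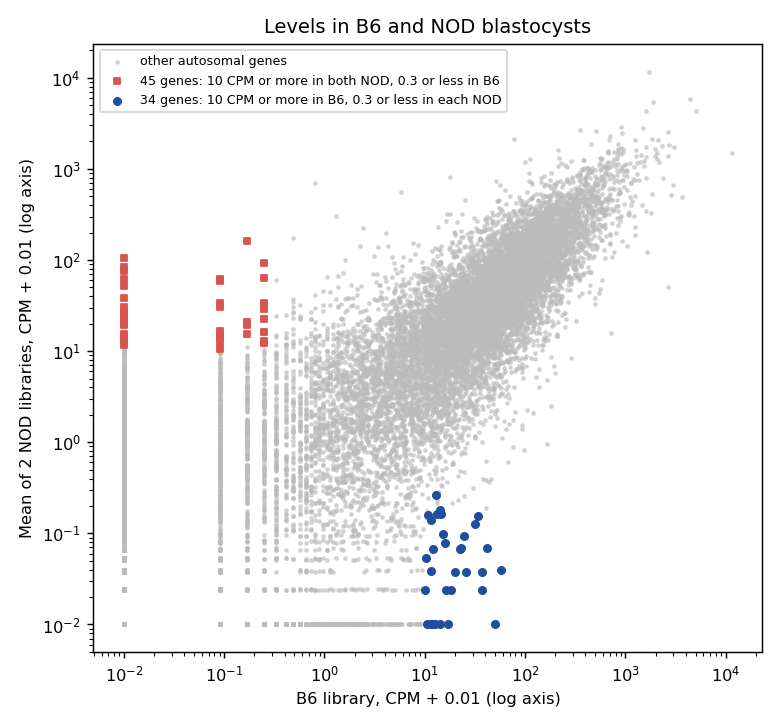
CPM in the B6 library against the mean CPM of the 2 NOD libraries for autosomal genes, with 0.01 CPM added and both axes logarithmic. The 34 genes (circles) lie below the cloud at 10.1 to 57.7 CPM in B6, and the 45 genes of the mirror-image rule (squares) lie above it at the left edge.

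The same limits applied to other pairs of libraries gave the background. With NOD 1 alone, 73 of the 8143 genes (0.896%) met the rule, and with NOD 2 alone, 58 (0.712%). The 34 genes are those that both sets share. Between the NOD libraries, 1 of 7702 genes (0.0130%) was at 10 CPM or more in NOD 1 and at 0.3 CPM or less in NOD 2. The reverse held for 7 of 7500 genes (0.0933%). In the mirror-image direction, 45 of 7140 genes (0.630%) were at 10 CPM or more in both NOD libraries and at 0.3 CPM or less in B6, where this limit corresponds to at most 3 counts.

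The limits cut through a continuous range of levels. Just inside the B6 limit were Guca1b with 126 counts in B6 against 0 and 1 in the NOD libraries, and Nrcam with 129, 3 and 0. Rbp2 (131, 0 and 0 counts), Tek (134, 10 and 0) and Col23a1 (143, 1 and 1) followed. Just outside it lay Klhdc8b with 122 counts in B6, compared with 1 and 0 in NOD, then Fam124a (120, 0 and 1), Klkb1 (119, 4 and 3), Crym (116, 1 and 0) and 2410137M14Rik (116, 2 and 0). At the NOD limit, the genes just inside were Tek, Fam196a, Tbx2, Foxc2 and Gm4956, with a highest NOD level of 0.236 to 0.295 CPM. Those just outside were Hr with 305, 11 and 6 counts, BC051142 (512, 1 and 12), Gm11538 (130, 0 and 12), C4a (167, 12 and 2) and Mink1 (131, 12 and 11). The values on either side of each limit were close, so that membership of these genes rests on a few counts.

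By function, the group joined receptors and channels, adhesion and matrix proteins, transcription factors, enzymes and transporters, and proteins of organelles and the cytoskeleton. RefSeq lists 31 of the 34 as protein-coding, 2 as noncoding RNAs (9330102E08Rik and AU040972) and 1 as a pseudogene (Gm4956), that is 91.2% protein-coding against 97.7% of the 8143 genes. Relatives and partners of the genes were chosen after the 34 genes were known, and their counts are descriptions.

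Among the receptors were both members of the TIE family of receptor tyrosine kinases, which is known for its role in endothelium. Tie1, an orphan receptor, had 308 counts in B6 against 0 and 6 in the NOD libraries. Tek, the receptor of the angiopoietins also called TIE2, had 134, 10 and 0 counts. By the rule both were higher in B6, and Tek was among the genes nearest to both limits. Their ligands were nearly undetected in all libraries: Angpt1 had 0, 1 and 0 counts, Angpt2 0, 8 and 24, and Angpt4 11, 0 and 0. Ptprb, the endothelial phosphatase that acts on TIE2, had 6.24 CPM in B6, compared with 0.620 and 2.16 in NOD and was not called. Of 5 endothelial markers, Cdh5, Kdr and Emcn were at 0 counts in B6, Cldn5 had 5, and Pecam1 had 50 counts in B6 against 840 and 559 in NOD. None of these 5 markers was above 4 CPM in B6, where both receptors were above 10.

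Chrnd codes for the delta subunit of the acetylcholine receptor of muscle, a ligand-gated channel of 5 subunits, and had 252, 0 and 2 counts. The ratio of B6 to pooled NOD was 706, with a 95% interval of 193 to 5861. This interval covers counting error only and does not allow for the choice of the gene by these counts. Other subunits of this channel were also counted higher in B6. Chrna1, which codes for the alpha subunit, had 75.6 CPM in B6 against 13.0 and 12.2 in the NOD libraries. It was lower in NOD by the test (log2 fold change -2.40 ± 0.36 SE, adjusted p = 0.0253, edgeR). Chrnb1 had 5.36, 1.62 and 1.27 CPM and Chrne 48, 0 and 0 counts. Neither was called by edgeR, but Chrne (adjusted p = 0.0510) was called lower with DESeq2 size factors and by DESeq2, and Chrng had no count. Of other muscle markers, Myog had 0, 22 and 0 counts, Myod1 0, 57 and 257 and Acta1 3, 0 and 1. Ckm, the muscle creatine kinase, had 82.1 CPM in B6 against 30.9 and 19.7 in NOD and was not called by edgeR. On this marker list, which includes Chrna1, DESeq2 tested 3 genes and called 2 lower and 1 higher.

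Gabbr1 codes for a subunit of the GABA-B receptor, which acts as a heterodimer, and had 197, 0 and 5 counts. Its partner subunit Gabbr2 had 0 counts in all 3 libraries. Cacna2d3, an auxiliary alpha2delta subunit of voltage-gated calcium channels, had 519 counts in B6, compared with 4 and 0 in NOD. It was the only one of the 4 alpha2delta genes above 1 CPM in any library. Fam196a, which codes for a protein of inhibitory synapses and is now named Insyn2a, had 162, 8 and 10 counts. This gave the lowest ratio of the group, 50.4 (95% interval 30.9 to 87.2). Neuronal markers were low throughout, with a sum of 3.20 CPM in B6 against 3.10 and 2.60 in the NOD libraries over 5 genes. Plch2, a phospholipase C of the eta class, had 145, 8 and 1 counts, and its relative Plch1 had 1, 157 and 18.

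Guca1b codes for an activator of the guanylate cyclases of photoreceptors and had 126, 0 and 1 counts. Guca1a, a gene of the same family that lies 1.59 kb from it, was also counted and is described with the neighbouring genes. Of the retinal cyclases, Gucy2e had 6.48 CPM in B6, compared with 2.30 and 0.359 in NOD, and Gucy2f had no count. Guca1a was also on the list of photoreceptor markers. Others of that list were Crx with 0, 8 and 16 counts, Nrl with 0, 5 and 3 and Pde6b with 0, 29 and 45. Myo7a, an unconventional myosin of the inner ear and retina, had 325, 0 and 2 counts, and Myo7b had 5, 0 and 32.

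In adhesion and matrix, Pvrl4, which codes for the immunoglobulin-like adhesion molecule nectin-4, stood out. It had 632 counts in B6 against 0 and 0 in the NOD libraries, the highest B6 level among the 9 genes with no NOD count, and was at least 571-fold lower in NOD against the floor of 3 counts in NOD 1 (0.0885 CPM). The other nectins went in different directions. Pvrl1 (nectin-1) had 153 CPM in B6, compared with 17.3 and 11.1 in NOD and was called lower in NOD, with an adjusted p of 0.0217 by edgeR. Pvrl3 (nectin-3) had 0.960, 45.7 and 18.9 CPM and was called higher (adjusted p = 0.0293, edgeR). Pvrl2 had 55.2, 100.1 and 67.5 CPM and Mllt4, which codes for the nectin-binding scaffold afadin, had 268, 203 and 154 CPM, and neither was called. Nrcam, of the L1 family of neural adhesion molecules, had 129, 3 and 0 counts, and L1cam had 12.5, 3.60 and 2.68 CPM without a call. Vwce, a secreted protein with von Willebrand factor C and EGF domains, had 460, 0 and 2 counts. Col23a1, a transmembrane collagen, had 143, 1 and 1 counts.

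Transcription factors of the group were Foxc2, Foxn4, Tbx2 and Zfp750. Foxc2, a forkhead factor of mesoderm and lymphatic vessels, had 392 counts in B6 against 8 and 0 in the NOD libraries. Its paralogue Foxc1 had 2.48, 5.66 and 2.21 CPM. Foxn4, a factor of retinal and spinal cord progenitors, had 165, 3 and 8 counts, and Foxn3 was lower in NOD as well (72.3 CPM in B6 against 15.6 and 14.96, adjusted p = 0.0306, edgeR). Tbx2, a T-box repressor, had 182 counts in B6, compared with 1 and 10 in NOD. Tbx3, the closest relative of Tbx2 and a factor of the blastocyst, had 344, 41.1 and 39.4 CPM and was lower by the test (log2 fold change -2.91 ± 0.25 SE, adjusted p = 0.0196, edgeR). Tbx4 and Tbx5 had 0 or 1 count in each library. Zfp750, a factor of epidermal differentiation, had 227, 0 and 1 counts, and of 5 keratinocyte markers Krt5, Krt14, Lor and Ivl had 0 counts in B6 and Krt10 had 23.8, 18.4 and 16.9 CPM.

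Enzymes, carriers and transporters formed another set. Cpt1c codes for the brain form of carnitine palmitoyltransferase 1 and had 466 counts in B6 against 0 and 1 in the NOD libraries. The ratio was 2611, the highest among the 25 genes with a NOD count, with a wide interval of 466 to 103338 because it rests on 1 NOD count. Cpt1a, the liver form, had 63.4, 59.5 and 55.0 CPM, and Cpt2 had 60.5, 43.3 and 64.9 CPM. These 2 enzymes of the same pathway were present in all libraries, while Cpt1b, the muscle form, had 122, 0 and 41 counts and was not called. Afm, which codes for the vitamin E-binding protein afamin, had 156, 0 and 0 counts, and of its cluster of relatives, Alb had no count in any library, Gc had 4, 0 and 0 and Afp had 0, 31 and 41. Rbp2, the retinol-binding protein of enterocytes, had 131, 0 and 0 counts, and Rbp7 had 7.52, 1.33 and 1.38 CPM. Slco3a1, an organic anion transporter, had 159, 0 and 0 counts, while Slco4c1 of the same family had 0.0800 CPM in B6 against 80.8 and 42.0 in NOD and was called higher (adjusted p = 0.0204, edgeR). Slc22a17, the receptor of lipocalin-2, had 150, 3 and 1 counts.

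For several genes of organelles, a paralogue with the same kind of role was well detected in NOD. Sun2 codes for a protein of the inner nuclear membrane that links the nucleus to the cytoskeleton and had 278 counts in B6, compared with 2 and 2 in NOD. Sun1, its paralogue, had 130, 294 and 222 CPM and was not called by edgeR (adjusted p = 0.0532), but was called higher in NOD by DESeq2. Of the nesprins, which bind SUN proteins from the outer membrane, Syne2 was lower in NOD with 98.3 CPM in B6 against 17.0 and 16.3. Sec16b, a scaffold of endoplasmic reticulum exit sites, had 215, 0 and 0 counts, and Sec16a had 59.8, 58.6 and 27.9 CPM. Dnajb5, a co-chaperone of the HSP40 class, had the highest B6 level of the group with 722 counts, against 2 in NOD 1 and 0 in NOD 2. Of the other 7 DNAJB genes looked at, 3 (Dnajb9, Dnajb11 and Dnajb12) were called higher in NOD by edgeR and the other 4 were not. DESeq2 called 5 of them higher, and edgeR scaled by total counts called 2. Dnajb9, a chaperone of the endoplasmic reticulum, had 3.12, 116 and 106 CPM. Mss51, a mitochondrial protein of skeletal muscle, had 149, 0 and 0 counts, and 1700009P17Rik, a gene of cilia now named Cfap126, had 156, 0 and 0.

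**Figure D3:**
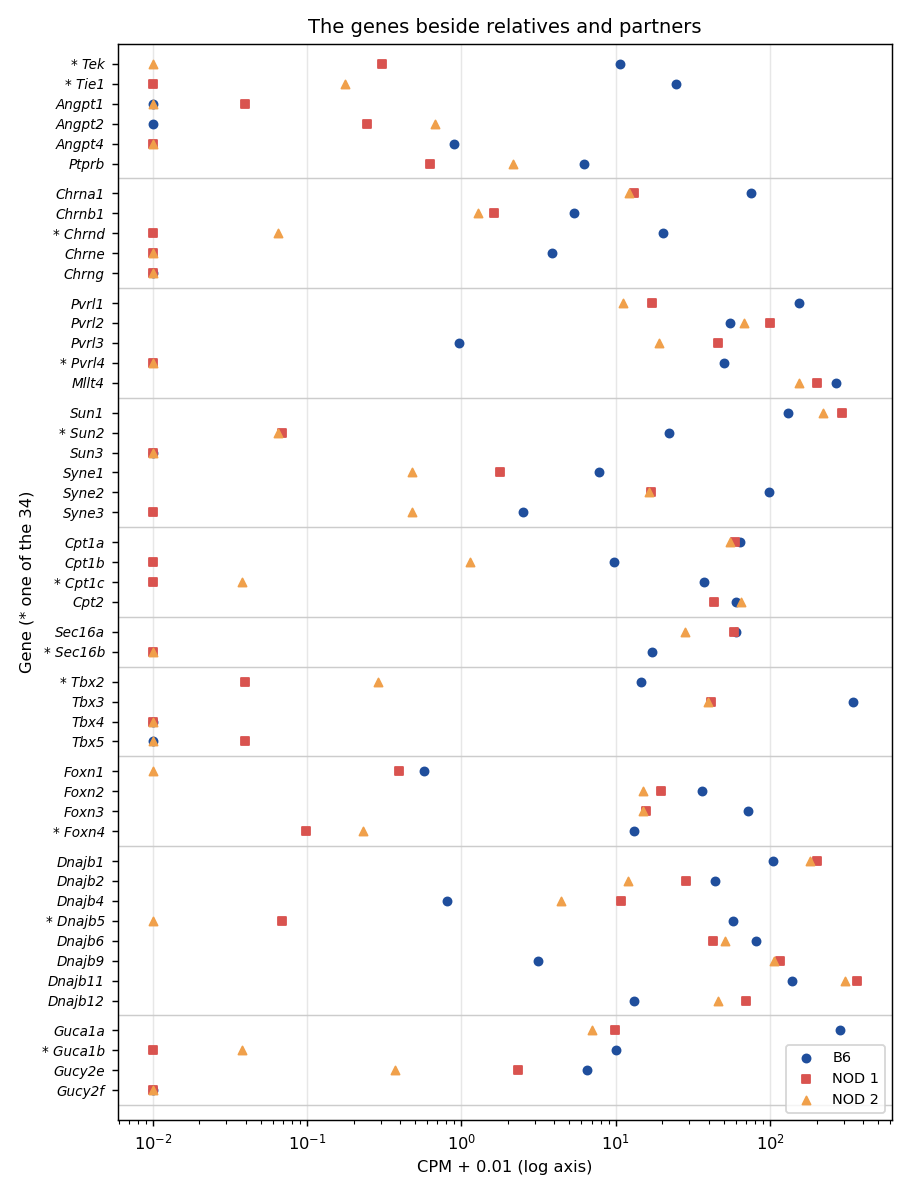
CPM plus 0.01, on a logarithmic axis, in the B6 library (circles), NOD 1 (squares) and NOD 2 (triangles). Shown are 10 families, with genes among the 34 (marked by an asterisk) and their relatives or partners. Relatives such as Cpt1a, Cpt2, Sun1 and Sec16a were present in all libraries, Chrna1, Tbx3 and Guca1a were lower in NOD, and Pvrl3 and Dnajb9 were higher.

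The remaining genes had 143 to 420 counts in B6. Gm4956 had 420 counts in B6 against 8 and 2 in the NOD libraries, and the noncoding RNA 9330102E08Rik had 286, 4 and 0. AU040972, Skint5, Sspo, Ms4a10 and 2410124H12Rik had 0 to 6 counts in NOD 1 and 0 to 8 in NOD 2. Over the 9 genes without a NOD count, the level in NOD was lower by at least 118-fold (Rbp2) to at least 571-fold (Pvrl4). Over the other 25 genes, the ratio of B6 to pooled NOD had a median of 288.

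Tissue markers of liver and intestine were examined beside these genes. Of 5 liver markers, Alb, Afp and Serpina1a were at 0 counts in B6 and Apoa1 had 152 CPM in B6, compared with 114 and 44.6 in NOD. Of 5 intestinal markers, Vil1, which codes for the microvillar protein villin, was lower in NOD (16.6 CPM in B6, 2.51 and 1.66 in NOD), and the other 4 were under 1 CPM in B6. Of these, Cdx1 had 0.240, 3.54 and 3.40 CPM and was not called. In none of the 7 tissue lists were more than 2 markers at 10 CPM in B6, and the part of other tissues in the levels was not tested.

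The sequence at the start of the transcripts was examined as a property that the rule had not used. CpG content was taken as the ratio of observed CpG dinucleotides to those predicted from the C and G content, over the first 300 bases of the matching GENCODE transcript, which was found for all 34 genes. The median was 0.43 in the 34 genes, 0.79 in the other genes at 10 CPM or more in B6 and 0.76 in the 4195 other genes with a transcript in the same range of B6 levels, of which the 34 genes lay mostly at the lower end. The ratio was under 0.4 in 16 of the 34 genes (47.1%), against 8.71% and 11.5% in those sets. It was over 0.6 in 11 genes (32.4%), against 76.7% and 71.9%. In the 45 genes of the mirror-image rule, the median was 0.67 and 10 (22.2%) were under 0.4. Starts with few CpG dinucleotides were thus more frequent among the 34 genes than in these sets, which is given as a description without a test. The lowest ratio was 0.064 in Gm4956 and the highest 1.14 in Sun2.

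**Figure D4:**
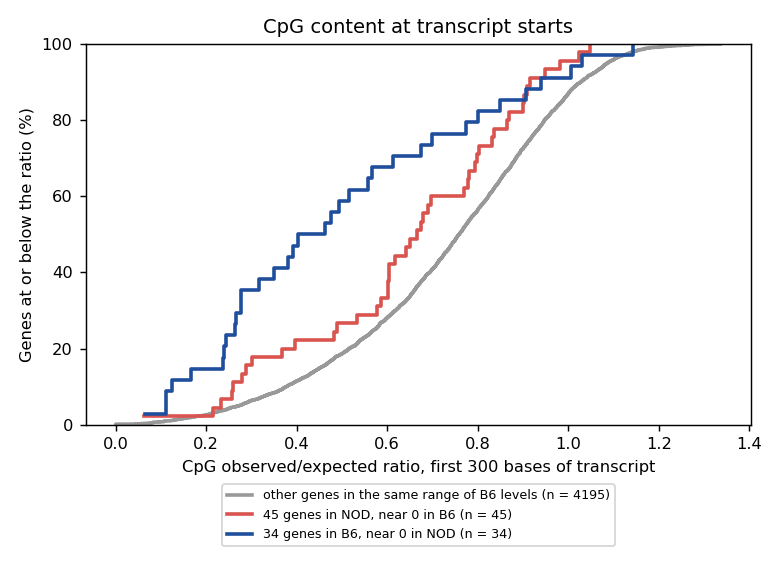
Cumulative share of genes, in percent, against the CpG observed/expected ratio of the first 300 transcript bases for the 34 genes, the 45 genes of the mirror-image rule and 4195 other genes in the same range of B6 levels. The curve of the 34 genes lies to the left, with 47.1% of genes under a ratio of 0.4 against 22.2% and 11.5%.

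The contrast can be read in the bases themselves, for which 4 genes with few CpG dinucleotides and 2 with many (Cacna2d3 and Sun2) were chosen. The 250 bases before each start are given 5′ to 3′ from RefSeq (GRCm38.p6), with each CpG in capitals.
Pvrl4, chr1:171369923-171370172, plus strand: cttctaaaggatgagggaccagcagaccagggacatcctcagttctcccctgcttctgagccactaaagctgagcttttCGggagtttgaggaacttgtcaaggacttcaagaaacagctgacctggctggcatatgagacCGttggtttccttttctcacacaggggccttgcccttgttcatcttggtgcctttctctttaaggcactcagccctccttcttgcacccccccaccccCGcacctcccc
Mss51, chr14:20496902-20497151, minus strand: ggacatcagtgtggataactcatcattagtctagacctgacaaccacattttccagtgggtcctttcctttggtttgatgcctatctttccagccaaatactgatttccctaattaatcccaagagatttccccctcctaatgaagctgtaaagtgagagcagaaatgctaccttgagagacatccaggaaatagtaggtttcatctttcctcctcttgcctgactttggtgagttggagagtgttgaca
Tek, chr4:94739039-94739288, plus strand: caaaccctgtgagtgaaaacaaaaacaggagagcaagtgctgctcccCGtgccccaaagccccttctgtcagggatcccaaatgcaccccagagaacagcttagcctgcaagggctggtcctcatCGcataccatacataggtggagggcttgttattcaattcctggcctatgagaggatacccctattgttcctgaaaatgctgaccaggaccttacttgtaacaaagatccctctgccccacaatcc
Tie1, chr4:118489850-118490099, minus strand: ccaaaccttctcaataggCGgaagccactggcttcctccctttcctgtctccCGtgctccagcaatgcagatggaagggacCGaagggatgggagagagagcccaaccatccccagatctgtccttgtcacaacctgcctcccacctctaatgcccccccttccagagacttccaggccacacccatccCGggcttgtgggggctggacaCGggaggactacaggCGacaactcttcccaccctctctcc
Cacna2d3, chr14:29721865-29722114, minus strand: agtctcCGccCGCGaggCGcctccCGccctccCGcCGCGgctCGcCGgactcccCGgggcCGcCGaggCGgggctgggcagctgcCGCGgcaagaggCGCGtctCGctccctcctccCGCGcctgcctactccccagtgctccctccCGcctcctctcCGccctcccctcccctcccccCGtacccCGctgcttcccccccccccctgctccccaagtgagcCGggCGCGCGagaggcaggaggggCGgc
Sun2, chr15:79742537-79742786, minus strand: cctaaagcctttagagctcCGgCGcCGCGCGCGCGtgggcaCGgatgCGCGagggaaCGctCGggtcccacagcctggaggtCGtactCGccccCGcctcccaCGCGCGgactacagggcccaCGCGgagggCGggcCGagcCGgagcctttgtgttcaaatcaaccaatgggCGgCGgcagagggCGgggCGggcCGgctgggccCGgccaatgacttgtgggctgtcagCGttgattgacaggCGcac

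Pvrl4 had 3 CpG dinucleotides in this window, Mss51 none, Tek 2 and Tie1 6, with observed/expected ratios of 0.17, 0, 0.13 and 0.28. Cacna2d3 had 30 and Sun2 31, with ratios of 0.81 and 0.99. A RefSeq promoter with a start within 10000 bases of the listed start was found for 27 of the 34 genes, too few for a check over the whole list, so that no summary over promoters is given. These 6 windows were searched on both strands for TATAAA (the core of a TATA box), GGGCGG (a GC box bound by Sp1), CCAAT (bound by NF-Y), CACGTG (an E box), GGAATG (bound by TEAD factors), GATAAG (bound by GATA factors) and CCGGAAG (bound by ETS factors). Of all 32851 RefSeq windows of this length, these letters are held by 12.4%, 32.7%, 33.8%, 6.02%, 12.6%, 6.55% and 6.91%, in the same order. GGGCGG was found before Sun2 and Cacna2d3, CCAAT before Sun2, where it shares no base with GGGCGG, although matches to GGGCGG there overlap each other, and none of the 7 motifs before Pvrl4, Mss51, Tek and Tie1. Other windows with few CpG dinucleotides did hold them, such as that of Plch2, with 1 CpG dinucleotide, GGGCGG and CCAAT, and that of Skint5, with 1 and GATAAG.

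Other properties of the transcripts bear on how reads were assigned. Each transcript was split into its 50-base words, the length of a read, and those also present in another gene were counted. They exceeded 10% of the words in 0 of the 34 genes, against 21.0% of the other genes at 10 CPM or more in B6, and reached 6.49% at most, in Cpt1c. Where along the transcripts the reads fell was not examined. Exons of 4 genes (Vwce, Sun2, Afm and Cpt1c) overlap exons of another gene, on the opposite strand, and reads were counted on both strands together, so that reads on the shared bases cannot be told apart. The shared part was 2.93% of the exon bases in Vwce, 3.58% in Sun2, 5.30% in Afm and 13.1% in Cpt1c. Exon overlap with another gene on either strand was present in 33.4% of the other genes, against 11.8% of the 34. The 34 transcripts had a median GC content of 54.2%, against 50.6%, and the listed exon length had a median of 3506 bases, against 2804.

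The 34 genes lay on 14 of the 19 autosomes, with none on chromosomes 2, 3, 10, 13 and 18. Chromosomes 1 and 4 held 5 each, chromosomes 7 and 11 held 4 each and chromosome 14 held 3. As a share of the genes at 10 CPM or more in B6, this was 1.07% on chromosome 1, 0.879% on chromosome 4 and 1.08% on chromosome 14, against 0.418% over all autosomes. The 17 genes on the plus strand and the 17 on the minus strand did not overlap each other. For 29 of the genes another one of the group was on the same chromosome, at a median distance of 23.5 Mb.

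Only 4 of the 34 genes (11.8%) had another of the group within 1 Mb, and none within 0.1 Mb. Among the 8143 genes from which they were taken, 99.2% had another of that set within 1 Mb, but that set is far denser and the shares are not comparable. Each of these 4 belonged to 1 of 2 pairs. 1700009P17Rik (mm10 chr1:171121661-171126967) and Pvrl4 (chr1:171370173-171388287) were separated by 243 kb with 17 genes between them. Of these 17 genes, 10 were at 10 CPM or more in B6. Of the 12 tested, 1 was lower in NOD by edgeR (B4galt3, 88.7 CPM in B6 against 25.4 and 24.8) and 11 were not called. Over all genes tested, 7.39% were lower and 10.3% higher. Pfdn2, which codes for a prefoldin subunit, had 322, 268 and 270 CPM. All 10 genes of the interval at 10 CPM or more in B6 had at least 4.13 CPM in each NOD library.

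The second pair was Vwce (chr19:10634233-10665210), with 460, 0 and 2 counts, and Ms4a10 (chr19:10962295-10974670), a member of the membrane-spanning MS4A family, with 203, 0 and 1. They were separated by 297 kb with 12 genes, 7 of which were tested. Of these 7, edgeR called 1 lower and 2 higher, against 7.39% and 10.3% of all genes tested. Prpf19, a splicing factor, was lower in NOD (148 CPM in B6, 10.7 and 9.93 in NOD), and Vps37c and Tmem109 were higher, the latter with 9.76 CPM in B6 against 64.8 and 62.8. Next in distance were Skint5 and Tie1 on chromosome 4, which were 4.47 Mb apart. Skint5 belongs to a family of immunoglobulin-like genes of skin and thymus and had 178, 4 and 8 counts.

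The genes next to the 34 were not used by the rule and were tested across all 14456 genes that passed the filter on low counts. In that test, edgeR's quasi-likelihood test with Benjamini-Hochberg adjustment, 1069 genes (7.39%) were called lower in NOD and 1483 (10.3%) higher, where a call needed an adjusted p below 0.05 and a change of 2-fold or more. Its p values measure only the spread between the 2 NOD libraries, which the labels do not tie to separate mothers. Of the 34 genes themselves 33 were called lower, which follows from the rule and is read no further, and Tek was not (adjusted p = 0.0756, edgeR).

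The nearest tested gene on each side within 0.5 Mb gave 58 neighbours of 31 genes, at a median distance of 19.3 kb. Of these neighbours, 9 were lower in NOD (15.5%, against 7.39% of all genes), 2 were higher (3.45%, against 10.3%) and 47 were not called. Of the 35 neighbours at 10 CPM or more in B6, 8 were lower (22.9%), against 11.7% of the 8143 genes at such levels, and 32 had at least 5 CPM in both NOD libraries. The median log2 fold change of the 58 neighbours was 0.19, against 0.26 over all genes, and that of the 35 neighbours was -0.63, against -0.22 over the 8143 genes. Closer genes with few counts in every library were passed over by the filter, so that these shares hold for tested genes alone. None of the neighbours at 10 CPM or more in B6 fell under 0.774 CPM in a NOD library. None of the 58 was called by edgeR without a filter on low counts (13 lower and 14 higher at an unadjusted p under 0.05) or by limma-voom (14 and 6).

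Guca1a, the neighbour of Guca1b at 1.59 kb, changed the most in CPM ratio among the neighbours that reached 10 CPM in B6. It had 286 CPM in B6 against 9.88 and 7.02 in the NOD libraries (log2 fold change -4.89 ± 0.34 SE, adjusted p = 0.0190, edgeR). Guca1b itself was higher in B6 by the rule, with the lowest B6 level of the 34 genes. 2610027K06Rik, 0.227 kb from Tbx2, was lower in NOD as well, with 18.9 CPM in B6 against 2.18 and 0.774 (adjusted p = 0.0488, edgeR). Slc22a17 was the only gene of the group with a lower neighbour on each side. Efs, which codes for an adaptor of the Cas family and lies 3.41 kb from it, had 96 counts in B6, compared with 1 and 7 in NOD. Pabpn1, the nuclear poly(A)-binding protein, had 734 CPM in B6 against 142 and 73.0. Efs missed the rule through its B6 level of 7.68 CPM.

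Of the other lower neighbours, Ddb1, a DNA damage recognition protein next to Vwce, had 1620 CPM in B6 against 367 and 322, and Acacb, an acetyl-CoA carboxylase next to Foxn4, had 40.5 against 5.78 and 5.39. B3gntl1 next to Zfp750 had 58.7 CPM against 3.07 and 3.87, Tspan9 next to 9330102E08Rik had 48.9 against 5.78 and 8.79, and Fcgr3, an Fc receptor gene next to 1700009P17Rik, had 14.7 against 1.03 and 1.71. The 2 higher neighbours were Selk, which codes for a selenoprotein of the endoplasmic reticulum and lies 246 kb from Cacna2d3, with 64.4 CPM in B6 against 239 and 210, and Pnpla8, a phospholipase next to Nrcam, with 46.7 against 161 and 156.

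**Figure D5:**
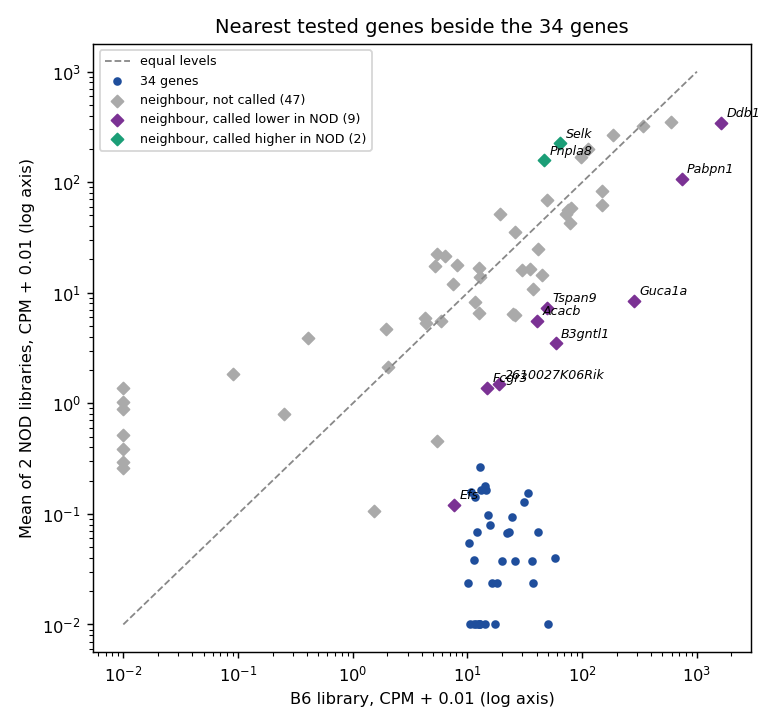
CPM plus 0.01 in B6 against the mean of the 2 NOD libraries, on logarithmic axes, for the 34 genes (circles) and their 58 nearest tested genes (diamonds), with the line of equal levels. The neighbours spread around the line, with 9 called lower (named), 2 called higher (named) and 47 not called. By the rule, the 34 genes lie far below it.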

How the data were processed

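RNA of 3 mouse blastocyst libraries (B6 n = 1, NOD n = 2) was measured by low-input RNA-Seq (SMART-Seq V4, 19 cycles of PCR, single-end reads of 50 bases). The authors aligned reads to mm10 with STAR (2.2.0c in the submitters' processing notes, another version in the methods; base calls by CASAVA 1.8.2) and counted them with HOMER per RefSeq gene, over the exons of 1 transcript each and both strands. The deposited values are raw counts without normalization, checked to be whole numbers with a different total in each library. The counting command names 5 libraries, of which 3 have columns here.

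CPM were computed from the column sums, and FPKM from CPM and the listed exon length. Libraries were grouped by the strain in the labels. Depth sets the precision: the floor of 3 counts was 0.240 CPM for B6, 0.0885 for NOD 1 and 0.0829 for NOD 2. Ratios carry exact Clopper-Pearson 95% intervals. Floors and intervals cover counting error only, since reads were amplified without molecular identifiers. The ratios and intervals come from the counts that the rule used and do not allow for this selection. All genes were tested with edgeR 4.0.16 in R 4.3.3 (filterByExpr with a minimum count of 10, TMM, trended dispersion, quasi-likelihood test, 1 residual degree of freedom), with Benjamini-Hochberg adjustment and calls for an adjusted p below 0.05 and a change of 2-fold or more. The code was tested on simulated data with known changes. Alternatives were DESeq2 1.42.0, limma 3.58.1 (voom), other scalings, filters, limits and distances. Python 3.11.15, pandas 2.3.3 and matplotlib 3.10.9 were used.

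Transcripts were matched by RefSeq accession in GENCODE M21. A neighbour was the nearest tested gene on each side within 0.5 Mb that overlapped none of the 34 genes. Under the naming rule, counts were given for the 10 genes highest in B6, for pairs within 1 Mb and for the 5 genes nearest each limit on either side, and called neighbours and called members of the marker lists were named. Counts of further members, their relatives, genes between the pairs and tissue markers were added after values were seen. The members and lists were chosen with earlier results of these data known. Columns of the authors' own comparisons were not present, and no column was left unmapped. The results for 2 genes are not reported here.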

Additional observations from a re-analysis of the deposited data

How the results depend on the processing

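The number of genes that met the rule depended on its limits. It was 100 at 5 CPM or more in B6, 12 at 20 CPM or more, 21 at 0.1 CPM or less in each NOD library and 77 at 1 CPM or less, against 34 as reported. Leaving out a NOD library gave 58 to 73 genes, which kept all 34, and CPM on TMM-scaled library sizes gave 30, all of them among the 34. Within 0.1 Mb, 0 of the 34 genes had another one of the group, against 4 within 1 Mb and 6 within 5 Mb.

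Calls over all genes were 1887 lower and 2365 higher with the DESeq2 Wald test. They were 0 in each direction with edgeR without a filter on low counts (5568 genes at an unadjusted p under 0.05, smallest adjusted p 0.0649) and with limma-voom (3924 genes, smallest adjusted p 0.0501). Among the neighbours, 0 were called lower and 0 higher by these last tests, 12 lower and 6 higher with DESeq2, and 9 lower and 1 higher within 0.1 Mb. With total counts in place of TMM, 1132 genes were lower and 1037 higher, so that 47.8% of calls were higher against 58.1%, the log2 fold change over all genes had a median of 0.07 against 0.26, and 8 neighbours were lower. DESeq2 size factors in edgeR left these counts within 1.5 times those reported. With 1 library in each group no test is possible: without a NOD library, 3601 to 3781 genes were more than 2-fold lower and 4448 to 4792 more than 2-fold higher, against 3507 and 5002 with both. The cause of these shifts was not tested. No paired analysis was possible because B6 has 1 library, so that the groups share fewer than 2 replicate numbers. Depth limits low levels, since 1 count is 0.0800 CPM in B6 and 0.0276 to 0.0295 CPM in NOD.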

Other observations

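Apart from the autosomal genes, 1 of the 213 genes on chromosome X at 10 CPM or more in B6 met the same limits. This was Drp2, a gene of the dystrophin family, with 137 counts in B6 and 1 and 0 in NOD. Among the autosomal genes left out by symbol, 1 met them, Mir544, with 128, 2 and 3 counts. Both were named after their values were seen. In the other lists examined, edgeR called 1 of 23 tested oocyte and maternal genes. This was Obox6, a homeobox gene of the oocyte, which was higher in NOD (8.56 CPM in B6 against 98.7 and 195). Of 22 tested glutathione S-transferases it called 1, Gsto1, which was lower (3628 CPM in B6 against 466 and 519). Over all genes, 7.39% were called lower and 10.3% higher. At an unadjusted p under 0.05 by edgeR, 3 oocyte genes were lower and 3 higher, and 5 glutathione S-transferases were lower and 3 higher. The lists of PYHIN genes, 2-cell genes, interferon-inducible GTPases and inflammasome and NLR genes had 0 genes called in either direction by edgeR, but the filter on low counts left few of them to test, namely 1 of 8, 3 of 19, 5 of 20 and 6 of 18 genes in the table. At an unadjusted p under 0.05 they had 0, except for 1 lower and 1 higher gene of the last list, for which DESeq2 called 1 gene in each direction. None of these lists holds any of the 34 genes.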
